A study of Mus musculus with 6 samples.

Results

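miR-21a and miR-22 are abundant miRNAs of mouse embryonic stem cells (ESCs) that were present at higher levels in serum cultures than in the ground-state cultures 2i and R2i. The 4 mature miRNAs described here are both arms of each hairpin, mmu-miR-21a-5p, mmu-miR-21a-3p, mmu-miR-22-3p and mmu-miR-22-5p (mmu- is left out below), taken by name from the 1907 mature miRNAs in the count table. They were chosen because they were higher in serum, so their levels against serum are given as a description without a test. All 4 were among the 571 miRNAs that passed the filter on low counts. Since the choice used values from all 6 libraries, these 4 are tested only in comparisons that it did not use, which are 2i against R2i and one cell line against the other. Other miRNAs named below are also tested against serum.

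Small RNA was sequenced from the lines RB18 and RB20, both derived from C57BL/6 mice in R2i with LIF and grown on gelatin with at least 10 passages in each medium. Every medium held 1000 U/ml LIF. Serum medium contained 15% fetal bovine serum. The 2i medium was serum-free N2B27 with 1 µM PD0325901, a MEK inhibitor that blocks FGF-ERK signaling, and 3 µM CHIR99021, a GSK3 inhibitor, whereas R2i was the same base with 1 µM PD0325901 and 10 µM SB431542, a TGF-β receptor inhibitor. Each of the 6 libraries, 2 per medium, came from a pool of 3 cultures of one line, so differences within a medium hold the line, the pool and the sequencing together. Serum therefore differs from the other media in both its base and its inhibitors. Total counts ranged from 1041858 (R2i, RB18) to 3593356 (R2i, RB20), and in each medium fewer counts came from RB18, so line and depth cannot be told apart. The 16 ESC marker arms, from the miR-290 and miR-302 clusters, took between 33.3% and 43.9% of the counts in every library, and in the ground state 3 of them, miR-302a-3p, miR-302b-3p and miR-302c-3p, were called higher than in serum and 0 lower by edgeR, beside 17% higher and 20% lower of all tested miRNAs. All 3 calls were lost without either serum library, and that of miR-302a-3p also with the cell line as a replicate block (adjusted p = 0.0127, edgeR). Counts are reads without molecular identifiers, so the intervals of shares and the bounds on zero counts cover counting error only. The intervals of edgeR fold changes also hold the spread between libraries.

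A miRNA hairpin is cut into a 5p and a 3p arm, and usually one of them, the guide, is kept by Argonaute and pairs with target mRNAs through its seed, bases 2 to 8. miR-21 is widely known as a miRNA induced by growth factor, STAT3, AP-1 and TGF-β signals that represses Pdcd4 and Spry genes, and in ESCs it has been linked to differentiation. miR-22 is carried by an exon of its own long non-coding host transcript and is known for roles in growth control, in blood and in heart.

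The mature sequences are shown 5′ to 3′ because the seed sets which mRNAs each arm can pair with. They are from RefSeq (GRCm38.p6), with the seed in capitals.

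mmu-miR-21a-5p: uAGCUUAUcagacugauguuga

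mmu-miR-21a-3p: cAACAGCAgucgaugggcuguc

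mmu-miR-22-3p: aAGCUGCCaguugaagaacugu

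mmu-miR-22-5p: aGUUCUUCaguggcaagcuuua

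The guide seeds of miR-21a-5p and miR-22-3p share their first 4 bases and then part. All 4 arms are 22 bases long, so CPM (the usual depth-scaled counts, here with the TMM factors of edgeR) need no length correction between them. Whether the different sequences were captured equally well in the libraries was not tested. Comparisons between arms below are therefore comparisons of counts. Among the 1679 mouse mature miRNAs with a RefSeq sequence, only miR-21c shares the seed of miR-21a-5p, and no other miRNA holds that of miR-22-3p. A sequence was matched for 1623 of the 1907 listed miRNAs, so a seed relative outside the RefSeq sequences would be missed. The relatives of miR-21a-5p are shown because their reads could be confused with its own.

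miR-21b: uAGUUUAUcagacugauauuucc

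miR-21c: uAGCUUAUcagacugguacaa

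miR-21c has the same first 15 bases as miR-21a-5p, and miR-21b the same first 3. RefSeq places miR-21b at chr3:29636768-29636790 (plus strand) and miR-21c at chr8:128278188-128278208 (minus strand). Both were listed at 0 counts in all 6 libraries. A count of 0 allows up to 3 counts, or 2.88 CPM in the smallest library and 0.835 CPM in the largest. This covers counting error only. How reads that match several miRNAs were assigned is not given in the sources used here, so the zeros do not bound the level of either miRNA.

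Both hairpins lie on mouse chromosome 11, 11.1 Mb apart and on opposite strands. Mir21a (chr11:86584067-86584158, minus strand, GRCm38) falls in exon 12 of Vmp1, inside its 3′ UTR in the GENCODE M21 annotation. Mir22 (chr11:75463716-75463810, plus strand) falls in exon 2 of the non-coding host gene Mir22hg, which is also exon 2 of a non-coding Tlcd2 transcript. The Mir22 hairpin is shown with both mature arms in capitals, since the balance of its arms was the most uneven.

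Mir22: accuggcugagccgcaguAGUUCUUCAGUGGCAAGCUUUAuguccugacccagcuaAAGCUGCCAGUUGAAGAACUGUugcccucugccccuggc

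mmu-miR-21a-5p, the guide arm of miR-21a, was counted 31195 times in RB18 and 34476 times in RB20 in serum. In 2i it was counted 5716 and 7812 times, and in R2i 3842 and 9312 times. It thus held 1.79% (RB18) and 1.54% (RB20) of all counts with serum. With 2i the shares fell to 0.278% and 0.232%, and R2i gave 0.369% and 0.259%. Both serum libraries thus stood above all 4 ground-state libraries with no overlap. For each member such a separation is only a description, since the members were chosen as higher in serum. On the normalized scale miR-21a-5p had 17086 ± 6.79 CPM in serum, 2582 ± 277 CPM in 2i and 2980 ± 447 CPM in R2i (SD, n = 2 libraries each). The close match of the serum libraries arose only after TMM scaling, as the unscaled shares show. Relative to serum, miR-21a-5p was 6.62-fold lower with 2i, a log2 fold change of -2.73 ± 0.24 (standard error here and below), and 5.74-fold lower with R2i, at -2.52 ± 0.24. miR-21a-5p ranked 13 (RB18) and 16 (RB20) by abundance with serum. Its ranks were 43 and 48 with 2i but 34 and 45 with R2i.

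mmu-miR-21a-3p, the minor arm of the same hairpin, was much scarcer. It had 643 and 1059 normalized CPM in serum (RB18 and RB20). With 2i the values were 190 and 150 CPM, while R2i gave 113 and 161 CPM. Again both serum libraries were above all others. Its log2 fold change was -2.32 in 2i (standard error 0.34) and -2.63 in R2i (standard error 0.34) against serum, so that both arms of miR-21a were several fold lower in the ground state.

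mmu-miR-22-3p, the guide arm of miR-22, was counted 40877 and 28480 times with serum (RB18 and RB20). The 2i libraries held 12946 and 18074 of its counts, the R2i libraries 6007 and 23742. This was 2.34% and 1.27% of all counts with serum, 0.629% and 0.537% with 2i, and 0.577% and 0.661% with R2i. The serum libraries were above the others without overlap, but they differed from each other more than the 4 ground-state libraries did. Normalized levels were 18251 ± 5844 CPM in serum, 5905 ± 546 CPM in 2i and 5972 ± 1159 CPM in R2i (SD, n = 2). The log2 fold change was -1.63 in 2i (standard error 0.29) and -1.61 in R2i (standard error 0.29) against serum. Because serum RB18 was the higher library, the fall of miR-22-3p in the mean of both ground-state media was smaller without it, at -1.14 against -1.62 with all libraries, and larger without serum RB20, at -1.97.

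mmu-miR-22-5p was the scarcest of the 4, at 59 (RB18) and 36 (RB20) counts with serum. It had 26 and 23 counts with 2i, against 19 and 30 with R2i. After scaling, serum gave 32.3 and 17.8 CPM, 2i gave 12.6 and 7.02 CPM, and R2i gave 16.3 and 8.58 CPM. The serum libraries were the highest on this scale, though only just, since serum RB20 was near R2i RB18. As an unscaled share of counts, R2i RB18 (0.00182%) lay above serum RB20 (0.00160%), so that for this arm the media overlapped before TMM scaling. The log2 fold change in the mean of both ground-state media was -1.24 (standard error 0.40), and -0.65 without serum RB18 (standard error 0.51). In 2i against serum it went from -1.38 to -0.79 without that library, and in R2i against serum from -1.10 to -0.51.

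**Figure D1:**
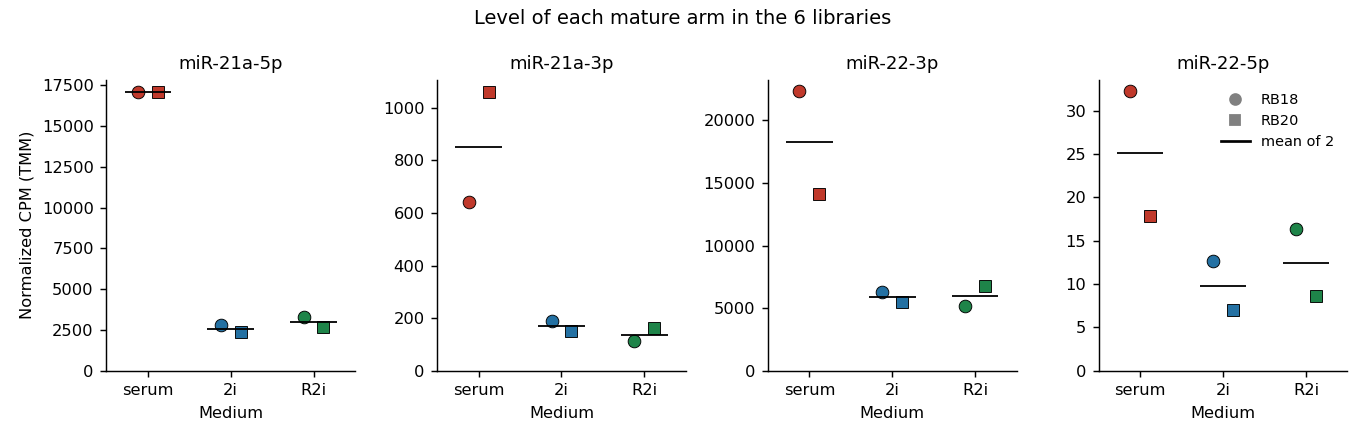
TMM-normalized CPM (linear axes from 0) of the 4 mature arms by medium. Circles are RB18, squares are RB20 and lines are the mean of the 2 libraries. The serum points lie above the ground-state points in each panel, by a narrow margin for miR-22-5p (17.8 CPM in serum RB20 and 16.3 CPM in R2i RB18), and the serum points of miR-22-3p are far apart (22383 and 14119 CPM).

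Read against all miRNAs, a fall of this kind was common. With a call set at an adjusted p (Benjamini-Hochberg) below 0.01 plus a change exceeding 2-fold in edgeR's quasi-likelihood test, 17.3% of the tested miRNAs were lower in 2i than in serum and 15.6% lower in R2i. In the mean of both ground-state media, 20% were lower and 17% higher than in serum. No call is given for the members, because they were chosen on these contrasts. For the mean of both ground-state media, 43 of the 571 miRNAs had a lower log2 fold change than miR-21a-5p, 53 than miR-21a-3p, 90 than miR-22-3p and 121 than miR-22-5p. The members were picked as abundant, so their place among abundant miRNAs is a description. Among the 50 most abundant miRNAs in serum, only miR-467c-5p had a lower log2 fold change than miR-21a-5p, and 5 had a lower one than miR-22-3p.

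**Figure D2:**
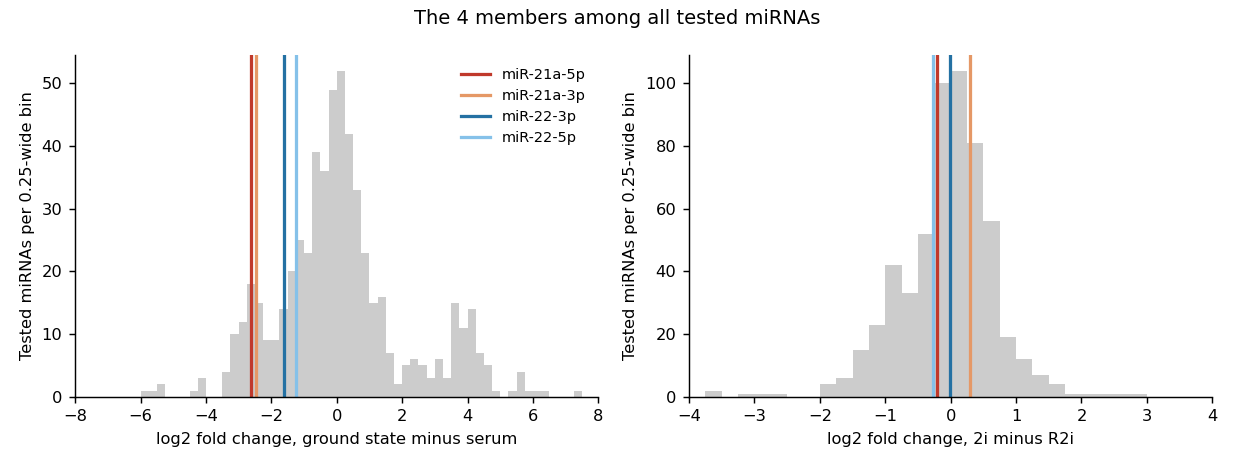
Histograms of log2 fold changes over the 571 tested miRNAs (grey, bins of 0.25), with the 4 members as coloured lines. In the ground-state mean against serum (left) the members lie between -2.62 and -1.24, and in 2i minus R2i (right) between -0.28 and 0.30, near the middle of all miRNAs.

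The guide arms were also set against each other. In serum, miR-21a-5p and miR-22-3p were not separated beyond the spread between libraries: the ratio of miR-21a-5p to miR-22-3p was 0.763 in RB18 and 1.21 in RB20. In 2i the ratio was 0.442 and 0.432, and in R2i 0.640 and 0.392, so miR-22-3p had the higher CPM in all 4 ground-state libraries. miR-21a-3p came next and miR-22-5p last in every library. Together the 4 arms took 4.20% and 2.90% of the serum counts and between 0.784% and 0.960% of the counts in each ground-state library.

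The next comparison asks whether exchanging GSK3 inhibition for TGF-β receptor inhibition, at the same MEK inhibitor dose, was accompanied by other levels of these miRNAs. By edgeR's test 0 of the 4 arms were called, against 0.35% of all tested miRNAs, which were miR-211-3p and miR-211-5p. At an unadjusted p under 0.05, 104 miRNAs differed and none of the 4 was among them. With the cell line as a replicate block, 0 of the 571 were called and 102 had an unadjusted p under 0.05. For miR-21a-5p the log2 fold change of 2i against R2i was -0.21, with a 95% interval from -0.73 to 0.32 (adjusted p = 0.679, edgeR). It was lower in 2i in both lines, by 1.19-fold in RB18 and 1.12-fold in RB20. For miR-21a-3p the value was 0.30, with an interval from -0.46 to 1.06 (adjusted p = 0.675, edgeR). miR-22-3p gave -0.02, from -0.68 to 0.65 (adjusted p = 0.983, edgeR). The interval of miR-22-5p was the widest, from -1.46 to 0.91 around -0.28 (adjusted p = 0.828, edgeR). A difference of up to about the bound of each interval is not excluded at this depth and with 2 libraries per medium.

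TGF-β signaling is known to raise miR-21 maturation through SMAD proteins that bind the letters CAGAC in the hairpin stem, which makes miRNAs with these letters a group of interest where the TGF-β receptor was inhibited. Of 1679 mouse mature miRNAs with a sequence, 28 (1.67%) held CAGAC on the miRNA strand, 26 of them were in the count table, and 3 passed the filter on low counts. They are shown with CAGAC in capitals.

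miR-21a-5p: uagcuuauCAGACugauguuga

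miR-199a-5p: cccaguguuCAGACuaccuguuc

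miR-3084-3p: uucugccagucuccuuCAGAC

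None of the 3 was called between 2i and R2i, beside 0.35% of all tested miRNAs. miR-199a-5p, a miRNA of mesenchymal cells, was counted 128 and 324 times with 2i (RB18 and RB20) and 147 and 263 times with R2i. Its log2 difference was -0.30 ± 0.69, at an adjusted p of 0.869 by edgeR. miR-3084-3p was counted 9 and 15 times with 2i against 5 and 13 times with R2i, or 0.20 ± 0.56 at an adjusted p of 0.912 by edgeR. The median of the 3, -0.21, was the value of miR-21a-5p itself, so it does not describe a group. The median of all tested miRNAs was 0.01, and 1 of the 3 was higher in 2i. In the hairpins, CAGAC occurred in Mir21a and not in Mir22, and in 7.96% of all 1005 mouse hairpins. A match of 5 letters describes the sequence and does not show binding.

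The lines RB18 and RB20 were compared in a model with medium and line as terms. No member was called, and 0% of the tested miRNAs were. At an unadjusted p under 0.05, 36 of the 571 differed, and DESeq2 called 0 (25 at an unadjusted p under 0.05). Scaling by library totals moved the median line difference of all miRNAs from 0.06 to -0.08 on the log2 scale, and the values below are from TMM. miR-22-5p, the scarcest member, was lower in RB20 in every medium, by 1.81-fold in serum, 1.80-fold in 2i and 1.90-fold in R2i. Its log2 fold change was -0.87 (standard error 0.23), with an unadjusted p of 0.0104 that did not hold after adjustment (adjusted p = 0.647, edgeR), and it rests on counts of 19 to 59 per library. Depth moved with it, since RB20 had the larger library in every medium, and the part of depth in the difference was not tested. The guide arms had smaller line coefficients, -0.18 for miR-21a-5p (95% interval from -0.57 to 0.22, adjusted p = 0.865, edgeR) and -0.15 for miR-22-3p (from -0.74 to 0.43, adjusted p = 0.930, edgeR). miR-21a-3p had 0.30 (from -0.36 to 0.95, adjusted p = 0.865, edgeR). miR-22-3p had no common direction: RB20 was 1.59-fold lower in serum and 1.14-fold lower in 2i but 1.32-fold higher in R2i.

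**Figure D3:**
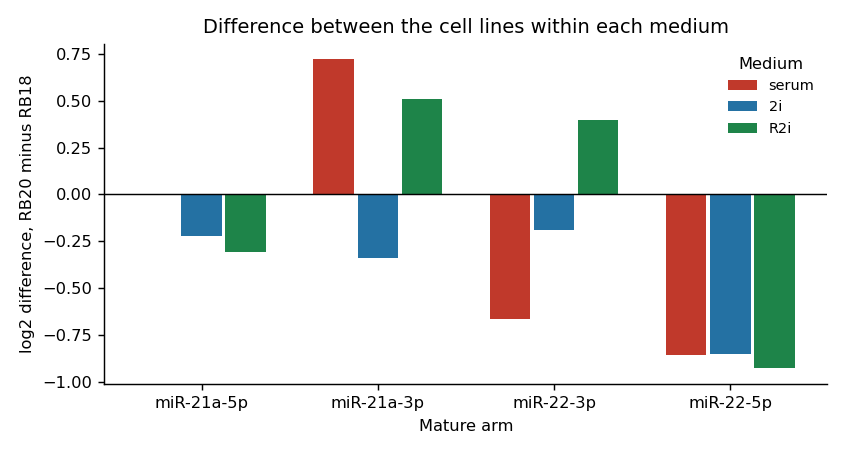
Log2 difference of TMM-normalized CPM, RB20 minus RB18, for each mature arm within each medium, with 1 library per line and medium and therefore no error bar. The bars of miR-22-5p all lie between -0.93 and -0.85, those of miR-21a-3p and miR-22-3p point both ways, and that of miR-21a-5p in serum is 0.0008 and too short to see.

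The use of the arms was then followed within each hairpin, as the share of the minor arm in the counts of both arms. Such a share does not depend on how libraries are scaled against each other. For miR-21a, miR-21a-3p made up 3.63% in serum RB18, 5.83% in serum RB20, 6.40% in 2i RB18, 5.92% in 2i RB20, 3.32% in R2i RB18 and 5.69% in R2i RB20. The share of miR-21a-5p in serum RB18 (96.4%, 95% Wilson interval from 96.2% to 96.6%) and R2i RB18 (96.7%, from 96.1% to 97.2%) lay above that of the other 4 libraries, whose values ran from 93.6% to 94.3% with intervals reaching no higher than 94.7%. The libraries with the higher guide share were thus both from RB18 and from different media. Within each line the share of miR-21a-3p was highest in 2i and lowest in R2i, and both 2i values lay above those of the other 4 libraries. In RB20 these differences were small, and the intervals of the 3 media overlapped. No test was made with 2 libraries per medium.

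For miR-22 the arms were far less balanced, with 316 to 791 counts of miR-22-3p for each count of miR-22-5p. miR-22-5p made up between 0.126% and 0.127% of both arms in all 3 RB20 libraries. In RB18 it made up 0.144% in serum, 0.200% in 2i and 0.315% in R2i. Only in R2i did the intervals of the guide share not overlap between the lines, running from 99.51% to 99.80% in RB18 and from 99.82% to 99.91% in RB20. R2i RB18 is also the library with the fewest counts and holds 19 counts of miR-22-5p.

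**Figure D4:**
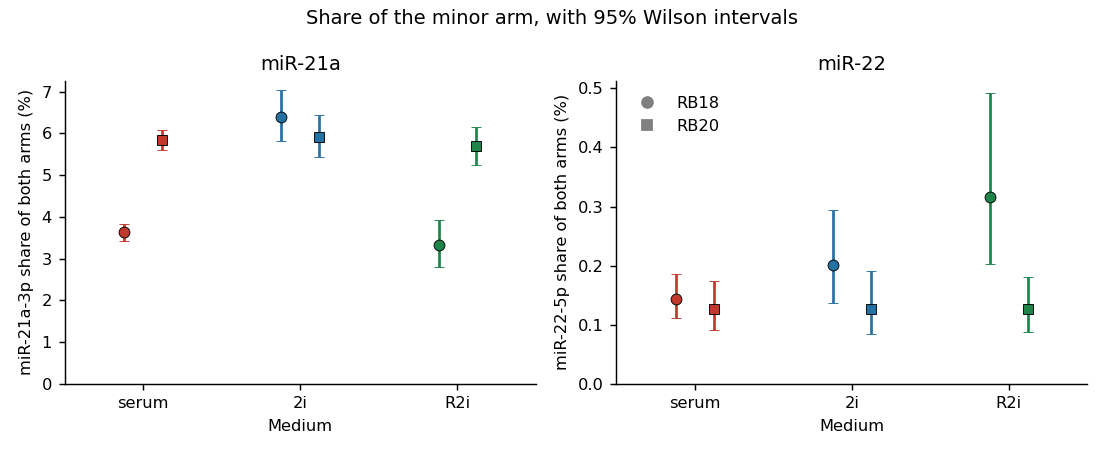
Share of the minor arm in the counts of both arms (percent, axes from 0) for miR-21a (left) and miR-22 (right) in each library. Circles are RB18, squares are RB20, and bars are 95% Wilson intervals for counting error. miR-21a-3p is lowest in serum RB18 (3.63%) and R2i RB18 (3.32%), and miR-22-5p is highest in R2i RB18 (0.315%).

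Other miRNAs followed the guide arms closely. Likeness was measured as Pearson's r of log2 CPM over the 6 libraries, which share media and lines, so it describes the profiles and carries no test. Of the other 567 tested miRNAs, 92 had r above 0.9 with miR-21a-5p and 74 with miR-22-3p, and miR-21a-5p and miR-22-3p had r = 0.943 with each other. The miRNAs most like miR-21a-5p were miR-669a-3p (r = 0.996), miR-467d-3p (0.995), miR-466a-3p (0.995), miR-362-3p (0.994) and miR-297c-3p (0.993). All but miR-362-3p carry names of the repeated families in an intron of the imprinted gene Sfmbt2, whose near-identical copies make their counts uncertain. miR-362-3p is on chromosome X. All were scarcer than miR-21a-5p: miR-669a-3p, the most abundant, had 850 and 831 CPM with serum, dropping to 100.1 and 91.0 CPM with 2i or 154 and 124 CPM with R2i. The miRNAs most like miR-22-3p were miR-483-5p (r = 0.986), which lies in an intron of Igf2, miR-674-5p (0.984), miR-466f-3p (0.983), miR-466e-5p (0.981) and miR-532-3p (0.974). miR-483-5p was at 0 in 3 of the 4 ground-state libraries, so its profile rests on few counts. That of miR-466f-3p does too, at 6.44 to 7.67 CPM in serum and 0.858 to 1.46 CPM in the ground-state libraries. miR-466f-3p and miR-466e-5p also carry names of the repeated Sfmbt2 families, so their counts are uncertain in the same way.

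**Figure D5:**
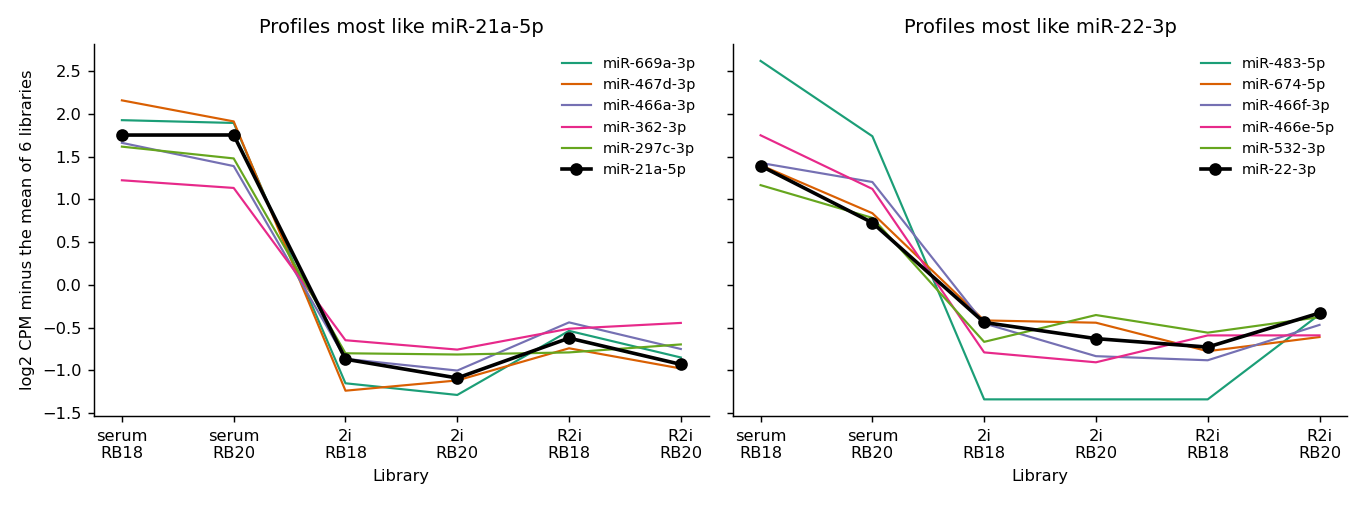
Log2 CPM of each miRNA minus its own mean over the 6 libraries, for the 5 tested miRNAs with the highest Pearson's r with miR-21a-5p (left) and miR-22-3p (right), which are drawn in black with points. Each line drops between the serum and the ground-state libraries, and miR-22-3p and its companions are higher in serum RB18 than in serum RB20.

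The listed miRNAs within 1 Mb of each hairpin were looked at because clustered miRNAs often share a transcript. The nearest with counts lay 529 kb from Mir21a and 290 kb from Mir22. Whether any of them shares a transcript with a hairpin was not tested. Within 1 Mb of Mir21a, the arms of miR-301a (529 kb away) went the other way and rose in the ground state, by 1.65 for miR-301a-5p (standard error 0.23, adjusted p = 0.000529, edgeR) and 1.25 for miR-301a-3p (standard error 0.23, adjusted p = 0.00254, edgeR) on the log2 scale. The call of miR-301a-3p was lost without 2i RB20 (adjusted p = 0.0128, edgeR). Within 1 Mb of Mir22, the miR-132 and miR-212 arms (290 kb away), miRNAs induced by CREB signaling, held between 1 and 35 counts per library. In the ground state 0 of 4 were called, beside 20% lower and 17% higher of all tested miRNAs. Their log2 fold changes were -1.09 (miR-132-3p, standard error 0.41), 0.20 (miR-132-5p, 0.81), -1.35 (miR-212-3p, 0.65) and -0.38 (miR-212-5p, 0.44). With so few counts, a change in them is not excluded. miR-3971, miR-5110 and both arms of miR-6926 were at 0 in all libraries.

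A list of miRNAs with a related mode of induction was also counted. Of 13 other miRNAs linked to induction by ERK, AP-1 or SRF, 12 were tested. In the ground state 3 were called lower and 0 higher, beside 20% lower and 17% higher of all tested miRNAs. The median was -0.37, beside -0.02 for all tested miRNAs. The most abundant of the list, miR-143-3p, a miRNA of smooth muscle and mesenchyme, had a log2 fold change of 0.73 and was not called (adjusted p = 0.0259, edgeR). The 13 summed to 2667 to 2775 CPM (unscaled) in serum, 3883 to 4054 CPM in 2i and 2651 to 2859 CPM in R2i. miR-143-3p carried most of these sums, at 1598 CPM (normalized) in serum, 3247 CPM in 2i and 2165 CPM in R2i. The sums therefore mainly follow this arm. Of the 12 tested, 3 had positive values in the ground state against serum, miR-143-3p among them. The 3 called lower were miR-155-5p (-1.61, adjusted p = 0.000198, edgeR), an AP-1 target in lymphocytes, miR-146a-5p (-1.49, adjusted p = 0.000787, edgeR), which is better known as an NF-κB target, and miR-31-5p (-1.24, adjusted p = 0.00173, edgeR). The normalized level of miR-155-5p was 183 ± 1.06 CPM with serum, 58.5 ± 3.23 CPM with 2i and 61.1 ± 3.86 CPM with R2i (SD, n = 2). Between 2i and R2i, 0 of the 12 were called, beside 0.35% of all tested miRNAs. Of the 12, 11 had a higher value in 2i, with a median log2 fold change of 0.58 beside 0.01 for all. The 12 include both arms of miR-132, miR-212 and miR-221, so they do not come from 12 separate hairpins.

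Markers of other cell types were set beside these results, since miR-21 is abundant in many differentiated cells. The 8 mesenchyme or fibroblast arms summed to between 1516 and 1852 CPM (unscaled) in serum, 3351 and 3576 CPM in 2i, and 2374 and 2712 CPM in R2i. In the ground state 0 of 5 tested were called, beside 17% higher and 20% lower of all tested miRNAs. All 5 tested arms had positive values in the ground state against serum, and 4 of 5 in R2i alone. miR-145a-3p had 12.1 CPM (normalized) in serum, 16.4 CPM in 2i and 10.2 CPM in R2i. miR-143-3p carried most of the sum, at 1598 CPM (normalized) in serum, 3247 CPM in 2i and 2165 CPM in R2i, and miR-199a-3p had 38.7, 92.7 and 85.5 CPM in the same order. miR-214-3p and miR-214-5p had at most 6 counts in any library. The 8 blood and blood serum arms summed to 2976 to 3408 CPM in serum, inside the range in 2i (2058 to 5224 CPM) and above that in R2i (766 to 1695 CPM), and of 5 tested 1 was called higher in the ground state and 0 lower, beside 17% and 20% of all tested miRNAs. With R2i alone, 1 was also called lower than with serum, miR-142a-5p, a miRNA of blood cells (log2 fold change -2.43, adjusted p = 0.00753, edgeR), a call that was lost without either serum library or R2i RB20. miR-142a-5p carried most of the sum, at 2430 CPM (normalized) in serum, 3050 CPM in 2i and 453 CPM in R2i, followed by miR-150-5p at 554, 343 and 590 CPM. In the mean of both ground-state media, miR-142a-5p had -1.05 and miR-142a-3p -1.14, neither called, and their part in the members' levels was not tested. miR-223-3p was at 0 in every library, the liver miRNA miR-122-5p had 5 and 7 counts in serum, and the red cell miRNA miR-451a had 0 and 3 counts in serum against 22 to 66 in the other libraries. Of the 3 listed muscle arms, 2 of 2 tested were called lower in the ground state, beside 20% of all tested miRNAs. The untested arm, miR-206-3p, had 0 and 3 counts in serum and 0 elsewhere. The 3 summed to 41.9 to 83.1 CPM in serum, 0.297 to 0.486 CPM in 2i and 3.896 to 8.64 CPM in R2i. Outside the list, miR-499-5p went the other way, at 15.9 and 16.4 CPM (normalized) in serum and 81.5 to 175.1 CPM in the ground-state libraries. miR-208b-3p was lower there, at 90.3 and 42.6 CPM in serum against 0.916 to 7.29 CPM. The levels of the 3 listed arms were a small fraction of those of the guide arms, and their part in the result was not tested. In RNA from a whole culture, fewer cells with a miRNA and less of it per cell cannot be told apart.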

How the data were processed

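The authors deposited a table of raw counts over 1907 mature miRNAs and a table of log2 values for part of them, which equal log2(count / size factor + 1) within the rounding of the file (largest difference 0.005). The submitters' processing notes list FastQC 0.11.5, cutadapt 1.3, Bowtie 1.1.2, featureCounts 1.5 and mm10. How reads with several matches or of either strand were counted is not given in the sources used here. The 6 libraries had 1041858 to 3593356 counts.

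Counts were tested with edgeR 4.0.16 in R 4.3.3: filterByExpr (minimum count 10, minimum total 15), TMM and the quasi-likelihood test on 571 miRNAs, with 1 coefficient per medium, or medium and line for RB20 against RB18. Calls required a change above 2-fold with an adjusted p (Benjamini-Hochberg) below 0.01. Ground state means the mean of 2i and R2i. P-values measure the spread between 2 pooled libraries per medium, with a common biological coefficient of variation of 24.6%. The script was tested on simulated data, where 91.3% of 196 miRNAs changed 4-fold between 2i and R2i were recovered. Shares have 95% Wilson intervals. The lines pair the libraries by design. Correlations of the line deviations were 0.211 (serum, 2i), 0.243 (2i, R2i) and -0.128 (serum, R2i).

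Mature sequences were matched by name to RefSeq (GRCm38.p6) for 1623 miRNAs. The members and lists were chosen with earlier results of these data known. The result of 1 list is not reported here. Besides the members, the text names miRNAs that share a guide seed, miR-21b and miR-21c, the 5 most alike by Pearson's r for each guide arm, the called or defining members of the lists, and miRNAs within 1 Mb of the hairpins. miR-211, miR-467c-5p, miR-499-5p and miR-208b-3p were chosen after seeing their values. The last 2, muscle miRNAs outside the muscle list, are given without a test. The counts of calls, the members' values and the tests of the other named miRNAs were repeated with DESeq2 1.42.0, scaling by library totals, no filter, the cell line as a block (or, for the lines, no medium term), the deposited log2 values for arm shares, and leaving out each library. List sums and medians and the likeness ranks were not repeated. Python 3.11.15, pandas 2.3.3, scipy 1.17.1 and matplotlib 3.10.9 made the tables and figures.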

Additional observations from a re-analysis of the deposited data

Results flagged for a closer look

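In 2i against R2i, 2 of the 4 miRNAs moved in opposite directions in the lines. The log2 difference of miR-21a-3p, 2i minus R2i, was 0.75 in RB18 and -0.10 in RB20. That of miR-22-3p was 0.29 in RB18 and -0.30 in RB20. Each value compares 1 library with 1 library, and the difference between the lines was not tested.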

How the results depend on the processing

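The number of miRNAs called between 2i and R2i, 2 in the main test, was 12 with DESeq2, 25 without the filter on low counts, 0 with the cell line as a replicate block, and 0 to 3 when 1 library was left out (0 without serum RB18, 1 without 2i RB20 or R2i RB20). Between the lines it was 0, but 4 without the filter and 0 to 12 when 1 library was left out (11 without serum RB18, 12 without serum RB20, 4 without either R2i library, and no member among them). The log2 fold change of miR-22-3p between 2i and R2i turned from -0.02 to 0.015 without the filter and ran from -0.17 to 0.21 when 1 library was left out, that of miR-22-5p from -0.75 to 0.19, and that of miR-22-3p between the lines from -0.49 to 0.066. Against serum, leaving out 1 library gave -1.98 to -1.15 (2i), -1.96 to -1.14 (R2i) and -1.97 to -1.14 (both) for miR-22-3p, -2.81 to -2.59 (2i) and -2.68 to -2.37 (R2i) for miR-21a-5p. Under the block, miR-21a-5p had -2.63 and miR-22-3p -1.60 for the mean of both media against serum, and no member was called between 2i and R2i. Of the other tested miRNAs named, the block ended the calls of miR-211-3p, miR-211-5p and miR-302a-3p and changed no other call. Leaving out 1 library moved miR-199a-5p between 2i and R2i from -0.67 to 0.14 and miR-132-5p in the ground state from -0.80 to 2.24, neither called. Of 498 repeated values, 449 kept their direction and side of the limits, or stayed within the spread. The cause of the others was not tested.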
